A study of Mus musculus with 15 samples.

Results

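The mitochondrial carrier family comprised 47 of the 21770 protein-coding genes of the GRCm39 annotation. Its members were chosen by name alone, as the genes whose symbol starts with Slc25a together with Ucp2 and Ucp3, leaving out Slc25a1 and Slc25a20. For each of them, H3K4me3 peaks overlapping 2000 bp either side of any annotated transcript start were collected and are called promoter peaks here. H3K4me3, the trimethylation of lysine 4 of histone H3, is a chromatin mark found at the starts of active genes.

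The data came from H3K4me3 ChIP–seq in mBA cells, brown adipocytes differentiated in culture from brown preadipocytes of newborn mice. Per the paper's methods the preadipocytes had been immortalized with SV40 large T antigen, whereas the sample labels call the cells primary. The 3 conditions were untreated wild-type cells (WT), wild-type cells given cell-permeable octyl d-2HG in DMSO (WT + 2HG), and untreated cells lacking the mitochondrial protease CLPP (CLPP-KO). Each had 4 ChIP samples and 1 input sample, and the authors called 1 peak list per condition over the 4 samples together. CLPP-KO cells came from mice with the gene deleted in the whole body, and the study's reporting form describes the lines as made in house from control and knockout mice, with 2 animals of each sex pooled. That form defines a biological replicate as an independent culture of cells. All cells were grown in high-glucose DMEM without pyruvate, and CLPP-KO cells were given uridine. The deletion, the uridine and any difference between the separately made lines cannot be told apart. The mouse strain and whether WT dishes received DMSO alone are not given in the sources used here.

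The pooled lists held 12342 peaks for WT, 14059 for WT + 2HG and 15118 for CLPP-KO, the latter pair being called the altered lists here. Unlabelled values given together follow this order. They carry no spread between replicates, so no value below has a replicate error and none was tested. They also hold no read counts, so depth is unknown. The strength of a peak, its area under the enrichment curve, is not scaled between lists. It is therefore given as a percentile, the share of peaks of the same list with an equal or smaller area, and a gene takes the percentile of its strongest promoter peak. Of 8 brown adipocyte markers, only Prdm16 had a promoter peak in all lists. Cidea had one in both altered lists and Ebf2 one in CLPP-KO, whereas Ucp1, the uncoupling protein of brown fat and no member by the naming rule, had none, nor had Dio2, Elovl3, Ppargc1a and Cox7a1. Of 5 general adipocyte markers, Pparg and Cebpa were marked in all lists, Plin1 in the altered lists, and Adipoq and Fabp4 in none. Marked in all lists were also the preadipocyte genes Pdgfra, Pdgfrb and Dlk1. Of 3 skeletal muscle markers, Myod1 was marked in CLPP-KO only and Myf5 and Myog in no list, and none of 3 immune or 3 endothelial markers was marked in any.

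Mitochondrial carriers are proteins of the mitochondrial inner membrane, a few of other membranes, that pass metabolites, nucleotides, cofactors and ions between the matrix and the cytosol. Each is built from repeats of a shared membrane module, and most exchange one substrate for another. In brown fat the family is known for the uncoupling proteins, which let protons return to the matrix without ATP synthesis, and for the ADP/ATP carriers. Carriers of 2-oxoglutarate belong to it too, the metabolite of which 2HG is a structural analogue and which histone demethylases need as a cosubstrate.

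Most carrier genes carried the mark in every condition, and those that differed in presence between lists were more often without a peak in WT. A promoter peak was found for 33 of 47 carrier genes in WT, where 51.3% of all protein-coding genes had one. In WT + 2HG there were 35, against 56.4% of all genes, and in CLPP-KO 38, against 58.2%. Peaks in all 3 lists were found for 32 carrier genes (50.6% of all genes), and 9 had none in any list (40.6%). Among other mitochondrial membrane transporters the count was 21 of 24 in each list, and among the import machinery that inserts carriers into the inner membrane it was 9, 10 and 10 of 10.

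Slc25a5, Slc25a17 and Slc25a53 had promoter peaks in both altered lists and none in WT, and Slc25a34 and Slc25a48 in CLPP-KO alone. Thus 3 of the 14 carrier genes without a WT peak had one in WT + 2HG, where 11.6% of all such genes did, and 5 of 14 in CLPP-KO (14.9%). In the other direction, Slc25a44 was marked in WT and not in WT + 2HG, 1 of 33 (0.914%), and 0 of 33 WT-marked carrier genes lacked a peak in CLPP-KO (0.672%). With each list cut to its 12342 strongest peaks by area, 2 of 14 remained for WT + 2HG (7.26% of all genes), Slc25a5 and Slc25a17. For CLPP-KO, only Slc25a5 remained (8.39%). The other 4 genes lost a peak in at least one shortened list, and theirs were the weak ones, none above percentile 13.5.

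**Figure D1:**
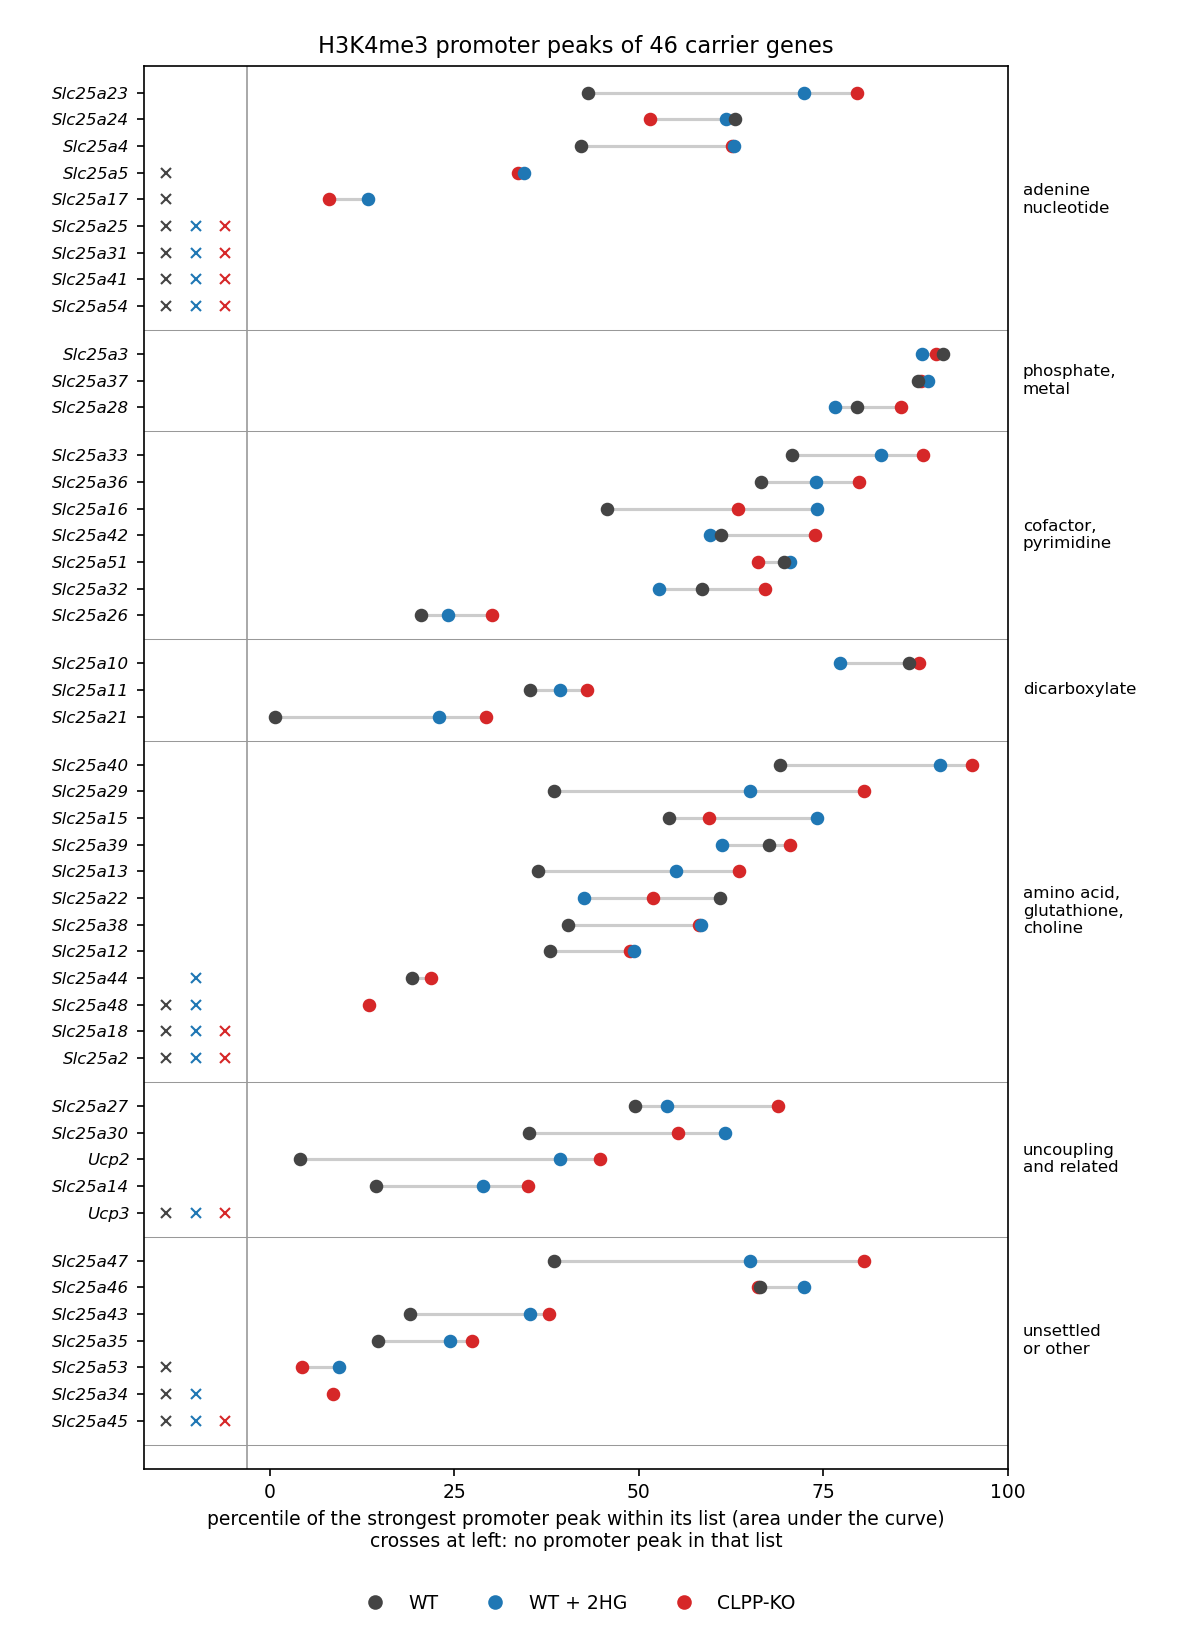
Percentile of the strongest H3K4me3 promoter peak within its list for 46 carrier genes, grouped by substrate, in WT (grey), WT + 2HG (blue) and CLPP-KO (red). Crosses at the left mark lists without a promoter peak. Ucp2 and Slc25a21 lie at 4.12 and 0.729 in WT and at 39.3 and 23.0 in WT + 2HG, while the phosphate and iron carriers stay above 75 throughout.

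To show what the marked and unmarked starts look like, the 250 bases before the canonical start of 7 genes follow, read from GRCm39 from 5′ to 3′ on the gene's strand, with CpG dinucleotides in capitals. Ucp2 and Ucp3 are neighbours on chromosome 7 and were marked in all lists and in none. Slc25a4, Slc25a5 and Slc25a31 are ADP/ATP carriers marked in all lists, in the altered lists and in none. Slc25a21 had the weakest WT peak of the family, and Slc25a34 was marked in CLPP-KO only.
Ucp2 (chr7:100142277-100142526, plus strand): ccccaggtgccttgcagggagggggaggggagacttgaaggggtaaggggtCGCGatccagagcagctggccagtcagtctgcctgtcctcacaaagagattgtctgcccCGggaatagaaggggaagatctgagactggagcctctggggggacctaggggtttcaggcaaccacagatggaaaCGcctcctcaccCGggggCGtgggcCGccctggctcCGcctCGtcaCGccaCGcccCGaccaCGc
Ucp3 (chr7:100121886-100122135, plus strand): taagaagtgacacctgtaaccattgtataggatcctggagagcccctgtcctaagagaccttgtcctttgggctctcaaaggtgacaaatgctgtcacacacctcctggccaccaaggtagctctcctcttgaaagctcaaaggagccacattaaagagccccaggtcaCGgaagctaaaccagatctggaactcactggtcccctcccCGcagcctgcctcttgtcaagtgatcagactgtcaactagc
Slc25a4 (chr8:46664326-46664575, minus strand): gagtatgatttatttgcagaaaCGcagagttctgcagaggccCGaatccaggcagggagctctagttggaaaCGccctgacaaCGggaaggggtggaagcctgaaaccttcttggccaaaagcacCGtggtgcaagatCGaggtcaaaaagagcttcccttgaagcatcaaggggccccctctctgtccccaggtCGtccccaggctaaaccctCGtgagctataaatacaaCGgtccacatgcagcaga
Slc25a5 (chrX:36058973-36059222, plus strand): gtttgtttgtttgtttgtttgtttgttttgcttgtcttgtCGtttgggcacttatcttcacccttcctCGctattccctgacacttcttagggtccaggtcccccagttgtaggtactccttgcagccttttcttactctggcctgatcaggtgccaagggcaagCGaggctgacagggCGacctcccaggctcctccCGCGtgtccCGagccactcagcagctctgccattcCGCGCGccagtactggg
Slc25a31 (chr3:40663035-40663284, plus strand): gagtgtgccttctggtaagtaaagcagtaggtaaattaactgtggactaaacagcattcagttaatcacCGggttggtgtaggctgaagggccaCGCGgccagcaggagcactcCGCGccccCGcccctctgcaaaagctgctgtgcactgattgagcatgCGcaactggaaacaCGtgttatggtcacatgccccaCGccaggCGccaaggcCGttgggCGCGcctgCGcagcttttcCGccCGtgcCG
Slc25a21 (chr12:57244258-57244507, minus strand): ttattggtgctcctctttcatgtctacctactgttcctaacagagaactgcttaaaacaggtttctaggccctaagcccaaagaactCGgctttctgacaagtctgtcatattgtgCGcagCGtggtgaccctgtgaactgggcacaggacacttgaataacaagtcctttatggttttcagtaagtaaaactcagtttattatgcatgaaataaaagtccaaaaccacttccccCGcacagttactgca
Slc25a34 (chr4:141351152-141351401, minus strand): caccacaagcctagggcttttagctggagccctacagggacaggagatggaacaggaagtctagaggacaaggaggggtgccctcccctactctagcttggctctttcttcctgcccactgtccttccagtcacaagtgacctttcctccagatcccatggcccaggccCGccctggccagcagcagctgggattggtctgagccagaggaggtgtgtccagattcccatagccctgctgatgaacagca

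These windows held 13 CpG in Ucp2 and 2 in Ucp3, 9 in Slc25a4, 10 in Slc25a5 and 17 in Slc25a31, 4 in Slc25a21 and 1 in Slc25a34. The unmarked Slc25a31 thus had the most and the CLPP-KO-only Slc25a34 the fewest. Of the motifs searched on both strands, the window of Ucp2 held GGGCGG (the Sp1 box) and that of Ucp3 AGGTCA (a nuclear receptor site). The window of Slc25a4 held TATAAA (the TATA box) and AGGTCA, and that of Slc25a5 none of the motifs. CCAAT was in the windows of Slc25a21 and Slc25a34, the latter with GGGCGG and AGGTCA too, and the window of Slc25a31 held GGGCGG, GCGCATGC and CACGTG. The window of Ucp2 also overlaps an exon of Gm72028, a long non-coding RNA gene of the opposite strand, so the mark there cannot be given to one gene alone.

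Adenine nucleotide carriers exchange ADP, ATP and related nucleotides across the membrane. Of these 9 genes, 3 were marked in WT and 5 in each altered list. Slc25a4, the ADP/ATP carrier most abundant in muscle and heart, stood at percentile 42.1 for WT, 62.8 for WT + 2HG and 62.7 for CLPP-KO, with widths of 886, 1424 and 1077 bp. Its WT peak began 283 bp after the start, within the gene, whereas the peaks of the altered lists reached 176 and 53 bp upstream, into the printed window.

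Slc25a5, the ADP/ATP carrier of most proliferating cells, had no promoter peak in WT, where the nearest peak lay 51452 bp away at Slc25a43. In WT + 2HG it had a peak of 928 bp at percentile 34.4 and in CLPP-KO of 1034 bp at percentile 33.7, both starting little over 100 bp before the start. Among carrier genes without a WT peak these were the strongest peaks, and both passed every stricter peak threshold tried. Slc25a31, the ADP/ATP carrier of the testis, was unmarked, with the nearest peaks at Hspa4l some 35765 to 35855 bp away.

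The ATP-Mg/phosphate carriers, which load the matrix with adenine nucleotides, diverged. Slc25a23 stood at 43.1, 72.3 and 79.5 in WT, WT + 2HG and CLPP-KO. Its 2 WT peaks, with a gap of 353 bp, were 1 peak in WT + 2HG, and with summed areas it stood at 51.5, 72.3 and 83.3. Slc25a24 stood at 63.1, 61.9 and 51.5 and was the only carrier gene 10 or more points lower in CLPP-KO. Slc25a25 and Slc25a41 had no peak, and neither did the related Slc25a54. Slc25a17, an adenine nucleotide and coenzyme A carrier of peroxisomes, was marked weakly in the altered lists, at percentile 13.4 with 2HG and 8.06 in CLPP-KO.

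The carriers of phosphate and iron were the most strongly marked group and differed little between lists. Slc25a3, which brings in the phosphate for ATP synthesis, stood at 91.2 for WT, 88.3 for WT + 2HG and 90.2 for CLPP-KO, the highest WT value of the family. The mitoferrin genes for iron import followed, Slc25a37 at 87.9, 89.2 and 88.2 and Slc25a28 at 79.5, 76.5 and 85.6. All of these lay within 10 points of WT. Over all protein-coding genes above percentile 75 in WT, the median differences were likewise small, −0.296 points in WT + 2HG and 0.0848 in CLPP-KO. Slc25a28 had 2 promoter peaks in each list, separated by 124 to 149 bp, and its summed width in WT + 2HG was 1.53 times that in WT.

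Of the carriers of cofactors and pyrimidine nucleotides, 7 were marked in each list, with median percentiles of 61.1 for WT, 70.4 for WT + 2HG and 67.1 for CLPP-KO. Slc25a33, a pyrimidine nucleotide carrier, led the group at 70.8, 82.9 and 88.5. Its relative Slc25a36 stood at 66.6, 74.0 and 79.9. In both genes the altered lists ranked above WT. Slc25a16, a carrier linked to coenzyme A, stood at 45.8, 74.2 and 63.4, and the coenzyme A carrier Slc25a42 at 61.1, 59.6 and 73.8.

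Slc25a26, which imports S-adenosylmethionine, the methyl donor of methyltransferases, stood lowest among the marked genes of this group, at 20.5, 24.1 and 30.1. Its peak was 330 bp wide for WT, 629 bp for WT + 2HG and 667 bp for CLPP-KO, ratios of 1.91 and 2.02 to WT. The folate and FAD carrier Slc25a32 stood at 58.6, 52.7 and 67.1 and had 1 promoter peak in WT and 2 in each altered list, the added one on the side of its neighbour Dcaf13. The NAD carrier Slc25a51 stood at 69.6, 70.4 and 66.2.

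All 3 carriers of dicarboxylates and oxodicarboxylates, the group that handles 2-oxoglutarate, were marked in every list, at very different levels. Slc25a10, which exchanges malate and succinate for phosphate, stood at 86.6 for WT, 77.2 for WT + 2HG and 88.0 for CLPP-KO. Slc25a11, the 2-oxoglutarate/malate carrier of the malate–aspartate shuttle, stood at 35.3, 39.3 and 43.0, with 2 promoter peaks in each list. Both lay within 10 points of WT in either altered list.

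Slc25a21, which carries 2-oxoadipate and 2-oxoglutarate, was the exception. It stood at percentile 0.729 for WT, 23.0 for WT + 2HG and 29.4 for CLPP-KO, with peaks of 218, 580 and 616 bp. The width ratios of 2.66 and 2.83 to WT were the largest of the family in either comparison. They rest on a WT peak with an area of 213, where the lowest area in the WT list was 200. This WT peak failed both stricter peak thresholds, on summit p and on area, so no difference or ratio exists there. The peaks of Slc25a21 began 253, 236 and 268 bp after the start, so none reached the printed sequence.

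Of 12 carriers of amino acids, glutathione and choline, 9 were marked for WT, 8 for WT + 2HG and 10 for CLPP-KO. The glutathione carrier Slc25a40 was the strongest, at 69.2 for WT, 90.8 for WT + 2HG and 95.2 for CLPP-KO. Its start lies 13 bp from that of Dbf4, a cell cycle gene read in the opposite direction, and in WT the 2 peaks on either side were separated by 142 bp. In the altered lists they formed 1 peak. With the areas of the WT peaks summed, the WT percentile was 89.4, and the differences from WT were only 1.42 points with 2HG and 5.78 in CLPP-KO. The other glutathione carrier, Slc25a39, stood at 67.7, 61.2 and 70.5.

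Slc25a29, which imports basic amino acids, stood at 38.5 for WT, 65.0 for WT + 2HG and 80.5 for CLPP-KO. Here too 2 WT peaks with a gap of 208 bp became 1, of 1564 bp in the 2HG-treated cells and 1743 bp in CLPP-KO. With summed areas it remained 17.3 and 32.8 points above WT. The same peaks fall to Slc25a47, a carrier of the liver read in the opposite direction, through an alternative transcript whose start lies 192 bp from one of Slc25a29. The canonical start of Slc25a47 lies 14820 bp from that of Slc25a29 and had no peak, so both genes rest on 1 set of peaks.

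The aspartate/glutamate carriers of the malate–aspartate shuttle both ranked higher in the altered lists as deposited. With lists of equal length, Slc25a13 stayed above WT in both, whereas Slc25a12 lay at 4.39 points with 2HG but at −0.745 for CLPP-KO. Slc25a12 stood at 38.0, 49.4 and 48.7, and Slc25a13 at 36.4, 55.0 and 63.6. The glycine carrier Slc25a38 stood at 40.4, 58.4 and 58.1. The glutamate carrier Slc25a22 went the other way, at 60.9 for WT, 42.6 for WT + 2HG and 51.9 for CLPP-KO. It was the only carrier gene 10 or more points lower in WT + 2HG. The ornithine carrier Slc25a15 stood at 54.0, 74.2 and 59.5, the one gene 10 or more points higher in WT + 2HG but not in CLPP-KO.

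Slc25a44, which carries branched-chain amino acids and is known from brown fat, was weakly marked in WT and CLPP-KO, at percentiles 19.2 and 21.9, with widths of 674 and 675 bp. In WT + 2HG the nearest peak lay 11741 bp away. The choline carrier Slc25a48 had a peak of 369 bp in CLPP-KO alone, at percentile 13.5. The glutamate carrier Slc25a18 and the ornithine carrier Slc25a2 had none.

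Among the uncoupling proteins and their close relatives, all 4 marked genes ranked higher in both altered lists than in WT, though with lists of equal length Slc25a27 lay at −2.19 points in WT + 2HG. Ucp2, an uncoupling protein of many tissues that also exports metabolites from the matrix, stood at percentile 4.12 for WT, 39.3 for WT + 2HG and 44.7 for CLPP-KO. The peak extended further on both sides in the altered lists, measuring 449, 767 and 1094 bp, ratios of 1.71 and 2.44 to WT, and it covered the printed window in each list. The difference of 35.2 points was the largest of the family in WT + 2HG. In CLPP-KO, the difference of 40.6 points came after that of the peaks shared by Slc25a29 and Slc25a47, 42.0. The WT peak of Ucp2 was weak, with an area of 273, where the lowest area in the WT list was 200. It failed both stricter peak thresholds, on summit p and on area, so no difference or ratio exists there. Ucp3, the uncoupling protein of muscle, lies upstream on the same strand and had no peak in any list, the nearest being that of Ucp2, 13379 to 13659 bp away.

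Slc25a30, a kidney carrier of this group, stood at 35.1, 61.6 and 55.3. Its width was 495 bp for WT, 1033 bp for WT + 2HG and 536 bp for CLPP-KO, so it was 2.09 times as wide as WT in WT + 2HG and 1.08 times in CLPP-KO. Slc25a27, a brain carrier that shares its peak with Cyp39a1, stood at 49.6, 53.8 and 68.9. Slc25a14, another brain carrier, stood at 14.4, 29.0 and 34.9.

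**Figure D2:**
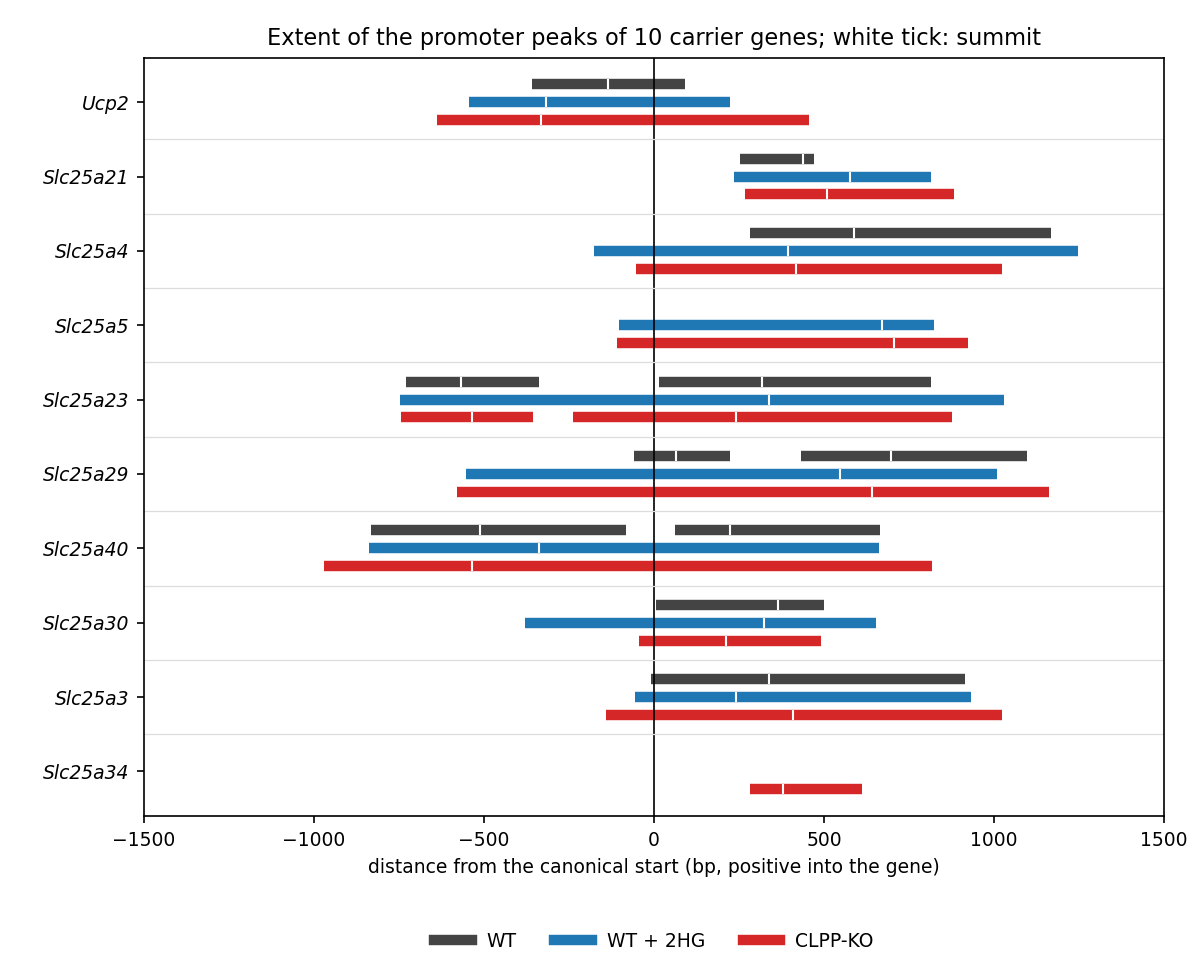
Extent of the promoter peaks of 10 carrier genes in WT (grey), WT + 2HG (blue) and CLPP-KO (red), by distance in bp from the canonical start, positive into the gene, with a white tick at the summit. The WT peak pairs of Slc25a29 and Slc25a40 are single peaks in both altered lists, and Slc25a5 and Slc25a34 have no WT peak.

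Carriers of unsettled substrate or other role were marked in 4, 5 and 6 of 7 cases. Slc25a46, an outer membrane protein of mitochondrial dynamics, stood at 66.5, 72.4 and 66.1. Slc25a35 stood at 14.7, 24.4 and 27.5, and Slc25a43 at 19.1, 35.2 and 37.9 with a width ratio of 1.64 between CLPP-KO and WT. Slc25a34 had a CLPP-KO peak of 330 bp at percentile 8.61. Slc25a53 had a peak at an alternative start shared with Zcchc18 in both altered lists, at 9.35 and 4.34, and 1 at its canonical start in WT + 2HG only. Slc25a45 had none, though peaks at Frmd8 lay 2379 to 2431 bp from its starts.

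Across the 32 carrier genes marked in WT and WT + 2HG, 24 ranked higher in WT + 2HG (75.0%, beside 64.4% of all protein-coding genes) and 8 lower, with a median difference of 10.6 points. The median over all protein-coding genes was 3.69. Across the 33 marked in WT and CLPP-KO, 28 ranked higher (84.8%, beside 69.8%) and 5 lower in CLPP-KO, with a median of 12.8 points against 5.27. A difference of 10 or more points upward was found for 16 of 32 in WT + 2HG, where 32.0% of all genes had one, and for 19 of 33 in CLPP-KO, where 36.1% had one. Slc25a29 and Slc25a47 both enter with the same peaks, here and in the counts below. With one gene per peak the upward counts were 13 of 29 (32.8% of all genes) and 17 of 31 (37.3%). The comparisons share the WT list. Downward differences of that size were found for 1 of 32 (9.70%) and 1 of 33 (6.56%). Median percentiles were 45.8 for WT, 61.2 for WT + 2HG and 61.1 for CLPP-KO, against 59.3, 60.6 and 62.0 for all protein-coding genes, so by their median the carrier genes ranked below other genes in WT and level with them in the altered lists.

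**Figure D3:**
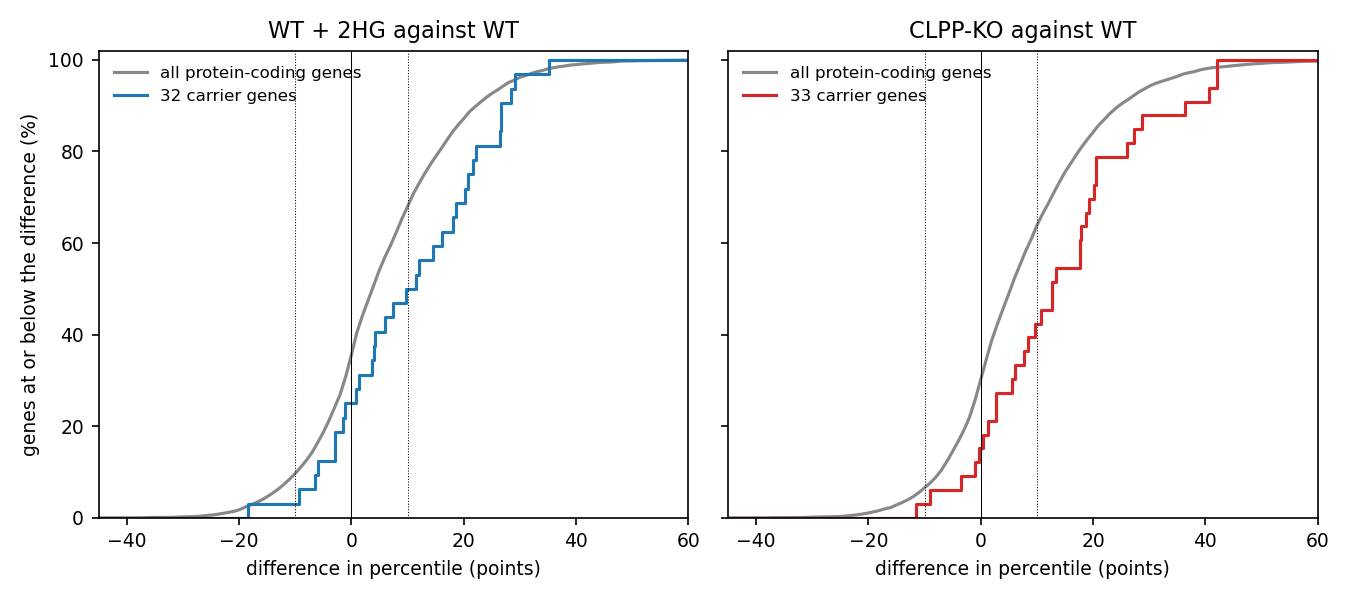
Cumulative share of genes (vertical axis, %) by the difference in percentile from WT (horizontal axis, points) for the carrier genes (colour) and all protein-coding genes (grey), in WT + 2HG (left) and CLPP-KO (right). Dotted lines mark 10 points in either direction, and the carrier curves lie to the right of the grey ones around the medians, 10.6 against 3.69 and 12.8 against 5.27.

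The WT percentile limits how far a gene can rise, so the differences were also read by WT rank. Of the 11 carrier genes between percentiles 25 and 50 in WT, 9 were 10 or more points higher with 2HG and 10 in CLPP-KO, where 47.3% and 57.4% of all genes of that range were. At 25 or less, 4 of 6 and 5 of 7 were, beside 64.8% and 70.2%. Between 50 and 75 the counts were 3 and 4 of 11 (31.6% and 34.4%), and above 75 they were 0 of 4 in each comparison (5.36% in both). The counts thus stood well above those of all genes in the range from 25 to 50, and near them elsewhere. That range includes Slc25a29 and Slc25a47, which share their peaks. Whether WT rank accounts for the differences was not tested.

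With the lists cut to equal length, the split became 18 higher and 14 lower in WT + 2HG (56.2% higher, beside 49.7% of all protein-coding genes) and 19 higher and 14 lower in CLPP-KO (57.6%, beside 47.3%). The difference from WT changed sign for 6 carrier genes with 2HG and for 9 in CLPP-KO. The medians were then 4.09 and 4.80 points, and those of all protein-coding genes −0.0446 and −0.535. A difference of 10 or more points upward was then found for 12 of 32 genes with 2HG (20.4% of all genes), namely Ucp2, Slc25a4, Slc25a13, Slc25a15, Slc25a16, Slc25a21, Slc25a23, Slc25a29, Slc25a30, Slc25a38, Slc25a40 and Slc25a47. In CLPP-KO it was found for 11 of 33 (18.5%), namely Ucp2, Slc25a4, Slc25a13, Slc25a21, Slc25a23, Slc25a27, Slc25a29, Slc25a30, Slc25a33, Slc25a40 and Slc25a47. Downward differences of that size were found for 4 of 32 (20.1%), Slc25a10, Slc25a22, Slc25a32 and Slc25a39, and for 4 of 33 (21.7%), Slc25a22, Slc25a24, Slc25a44 and Slc25a51. Slc25a40 is among the upward genes by its strongest single peak, and not by summed areas in the lists as deposited. For Ucp2 the difference was 26.8 points with 2HG and 28.2 in CLPP-KO, and for Slc25a4 15.5 and 12.1. Slc25a22 and Slc25a24 were lower than in the lists as deposited, at −26.4 in WT + 2HG for Slc25a22 and −22.5 in CLPP-KO for Slc25a24.

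**Figure D4:**
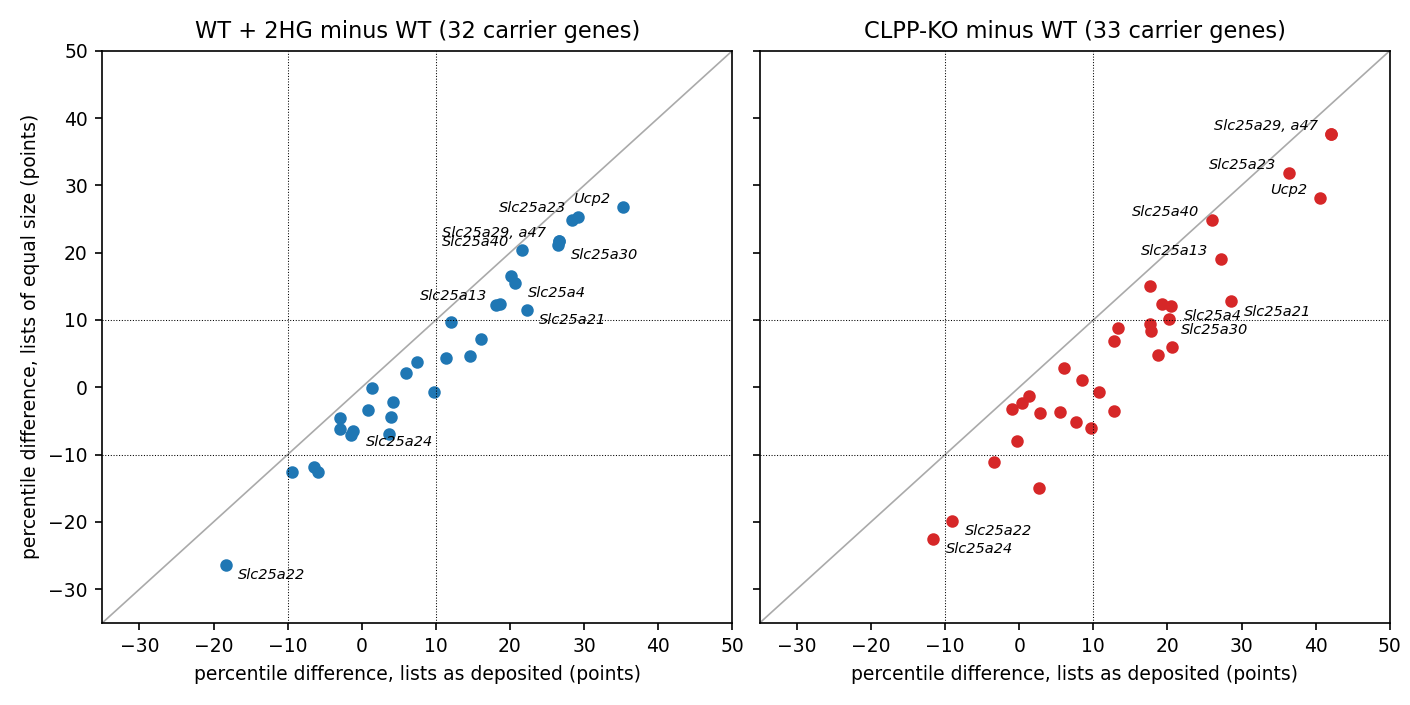
Difference in percentile from WT (points) of each carrier gene in the lists as deposited (horizontal axis) and in lists cut to 12342 peaks each (vertical axis), for WT + 2HG (left) and CLPP-KO (right). Dotted lines mark 10 points and the diagonal marks equality, and every gene lies below the diagonal, while the genes named in the upper right, of which Slc25a29 and Slc25a47 share a point, lie above 10 on both axes.

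Promoter peaks were more often wider than narrower in the altered lists, among the carrier genes and among all genes. In WT + 2HG 27 of 32 carrier genes were wider (73.3% of all genes), and in CLPP-KO 29 of 33 (72.7%). A summed width of 1.5 times WT or more was found for 9 of 32 genes in WT + 2HG (13.9% of all genes) and for 7 of 33 in CLPP-KO (14.3%). After removing the median of all genes these counts were 4 of 32 (9.38%) and 5 of 33 (10.1%). Without that step, narrowing of 1.5 times or more was found for 0 of 32 (1.28%) and 0 of 33 (1.47%). Ucp2, Slc25a21, Slc25a26, Slc25a29, Slc25a32 and Slc25a47 were wider in both. The ratios of Slc25a32, 1.65 and 1.62, include the added peak on the side of Dcaf13 and fell to 1.10 and 1.05 under the stricter summit p or area, equal length or one gene per peak, where that peak drops out or goes to Dcaf13. Slc25a4, Slc25a28 and Slc25a30 were wider only in WT + 2HG by this limit and Slc25a43 only in CLPP-KO. The strongest promoter peaks of the carrier genes had median widths of 802 bp for WT, 906 bp for WT + 2HG and 897.5 bp for CLPP-KO. Over all protein-coding genes the median summed widths were 984, 1080 and 1075 bp, a different measure that is not to be set against them.

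Most peaks lay just inside the gene. The summit of the strongest peak was 0 to 500 bp downstream of the nearest annotated start for 29 of 33 carrier genes in WT (68.1% of all marked protein-coding genes), 28 of 35 in WT + 2HG (69.2%) and 33 of 38 in CLPP-KO (70.3%). Upstream summits were found for 4, 5 and 3 carrier genes, beside 23.7%, 23.7% and 22.4% of all marked genes. Promoters divided into 2 or more peaks were 6 of 33 in WT (17.4% of all genes), 4 of 35 in WT + 2HG (16.3%) and 4 of 38 in CLPP-KO (16.9%). In WT these were Slc25a11, Slc25a23, Slc25a28, Slc25a29, Slc25a40 and Slc25a47.

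A peak also fell within the promoter window of another protein-coding gene for 8 of 38 marked carrier genes (25.0% of all marked genes), always a gene on the opposite strand. Besides those named above, these were Slc25a11 with Rnf167 and Slc25a23 with Crb3. For these genes the mark cannot be given to one gene alone. Among the nearest distances, the starts of Slc25a11 and Rnf167 lay 76 bp apart, and those of Slc25a23 and Crb3 11 bp.

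WT + 2HG and CLPP-KO were close for many carrier genes and apart for some. Since both are set against the same WT list, they are compared here with each other, first in the lists as deposited. The largest gaps there were those of Slc25a29 and Slc25a47, 15.5 points higher in CLPP-KO, and of Slc25a27, 15.1 points. For Slc25a15 the CLPP-KO percentile minus that in WT + 2HG was −14.7, for Slc25a32 14.4, for Slc25a42 14.2 and for Slc25a16 −10.8. In contrast, Slc25a4, Slc25a5 and Slc25a38 differed by less than 1 point. Over all protein-coding genes marked in both lists, the 10th and 90th percentiles of the same difference were −8.68 and 14.6 points.

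The 4 carrier genes on the X chromosome, Slc25a5, Slc25a14, Slc25a43 and Slc25a53, ranked low in every list, at no more than 19.1 for WT, 35.2 for WT + 2HG and 37.9 for CLPP-KO. Their number marked was 2 in WT and 4 in each altered list. The same direction was seen for all 982 protein-coding genes of that chromosome, of which 243, 329 and 338 were marked, with median percentiles of 30.3, 34.9 and 38.8, below those of all protein-coding genes. Of the 3 and 5 carrier genes marked in WT + 2HG and CLPP-KO but not in WT, 2 in each case were these X-linked genes. The peak calling commands that the study lists name this chromosome among those to leave out, yet the deposited lists hold peaks on it. The part of the chromosome in those counts was not tested.

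CpG content around the starts was read as a feature that the choice of genes did not use. Over 500 bp either side of the canonical start, the ratio of observed to expected CpG had a median of 0.720 in the 32 carrier genes marked in all lists, 0.560 in the 6 marked in some and 0.399 in the 9 marked in none. The medians of all protein-coding genes in these classes were 0.755, 0.580 and 0.200. A ratio of 0.6 or more was found for 24 of 32, 1 of 6 and 3 of 9 carrier genes, and for 81.3%, 45.9% and 6.18% of all genes. Among the CpG-rich genes without a peak were Slc25a25 with a ratio of 1.09, the highest of the family, and Slc25a31 with 0.753. At the other end, Slc25a47 was marked in all lists with a ratio of 0.235 at its canonical start, which had no peak itself.

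**Figure D5:**
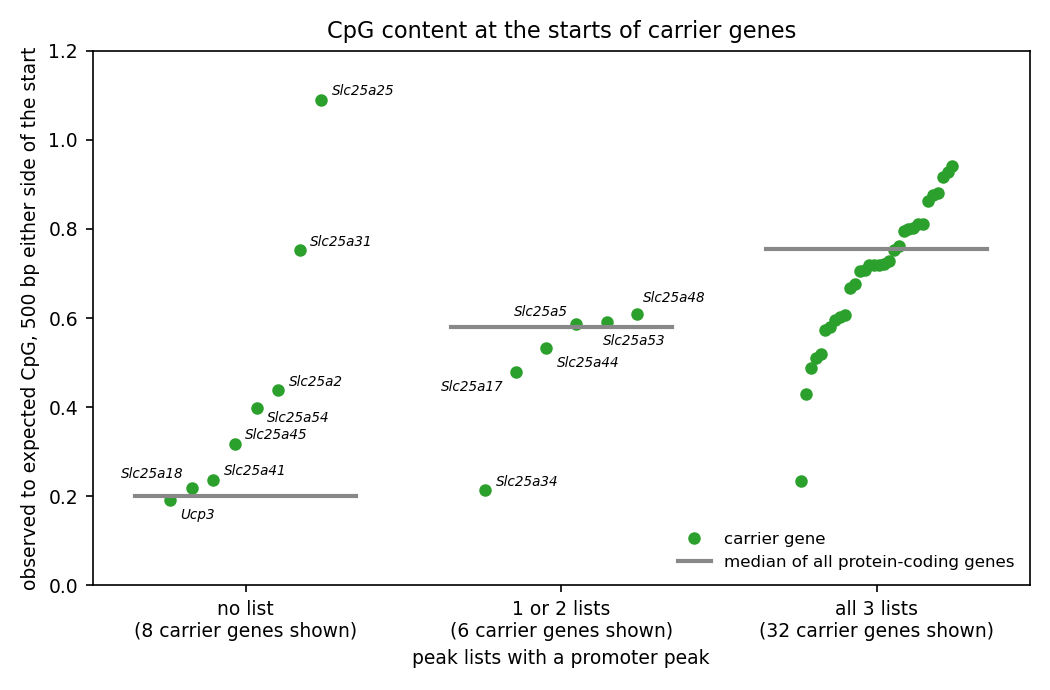
Ratio of observed to expected CpG within 500 bp either side of the canonical start (vertical axis) for 46 carrier genes (points) by the number of lists with a promoter peak, with the median of all protein-coding genes of the same class as a bar. The bars stand at 0.200, 0.580 and 0.755, and Slc25a25 and Slc25a31 lie far above the bar of the unmarked genes.

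Among the sequence motifs in the 250 bases before the start, GGGCGG was found in 23 of 47 carrier genes (48.9%, beside 36.3% of all protein-coding genes) and CACGTG, the E-box, in 7 (14.9%, beside 6.26%). CCAAT was found in 17 (36.2%, beside 36.5%), TATAAA in 3 (6.38%, beside 11.9%) and AGGTCA in 7 (14.9%, beside 13.1%). CCGGAAG, the ETS box bound by GABP, was found in 3 (6.89% of all genes) and ATGGCGG, the YY1 core, in 2 (2.20%). GCGCATGC, the NRF1 core, was found in 2 (2.68%) and TGACGTCA, the cyclic AMP response element, in 1 (1.69%). TGATGCAA, an ATF4 element, was found in 0 of 47, and in 0.887% of all genes. No motif contains another, and a match describes letters, not binding.

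Beside the carrier genes, the 24 other mitochondrial membrane transporters had median differences from WT of 4.53 points in WT + 2HG and 3.64 in CLPP-KO. Those of the import machinery were 1.10 and 0.603. The genes of these lists stood higher in WT to begin with, at medians of 68.3 and 76.0, and the difference between the lists was not tested.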

How the data were processed

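H3K4me3 ChIP–seq had been carried out on 12 samples, 4 per condition, with 3 input samples. Per the study's methods and the submitters' processing notes, reads were trimmed with fastp 0.23.4 and mapped to GRCm39 (mm39) with BWA 0.7.17, and peaks were called with Genrich 0.6.1 on the replicates of a condition together. deepTools 3.5.4 is named as well. The authors deposited 1 peak list per condition, in which column 7 is the signal, the area under the curve, column 8 is the −log10 p-value at the summit and column 5 is a score limited to 1000. The deposited q-value column is unfilled. No count of reads is given, so depth and its precision are unknown, and a pooled list moves with how many peaks were called.

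Genes, starts and sequence came from GENCODE M39 and GRCm39, and 0 peaks lay beyond a chromosome's end. From the lists, the promoter peaks (within 2000 bp of any start), the percentile of the area within the list, the summed width, the neighbours and the CpG content were computed with Python 3.11.15, numpy 2.4.6 and pandas 2.3.3. Peak assignment was tested on planted peaks and against bedtools. Differences of 10 percentile points or 1.5 times in width are named as limits of size, not of significance. No comparison was tested, since there is 1 list per condition. The members, gene lists, motifs and limits were chosen with earlier results of these data known.

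Genes are named with values when their peak was in some lists only, passed a limit, was divided, or stood highest or lowest in its substrate group in WT, or for their role. The plan took promoter sequence from the RefSeq promoter table, but that is of build GRCm38.p6, so the genome of the files' build was used and the table was an alternative. Protein sequences were not analysed here, and 1 carrier gene, kept in the counts, is not reported or plotted by itself. Alternatives were another window, start or summit rule, stricter or equal-sized lists, one gene per peak, and percentiles of other columns. Chromosomes 1 to 19 alone, summed areas, the WT rank classes and the RefSeq table were added after seeing the data.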

Additional observations from a re-analysis of the deposited data

How the results depend on the processing

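No paired analysis was possible because each condition has 1 pooled list, and for the same reason no replicate could be left out. Of 254 counts of carrier genes recomputed under alternatives, 214 stayed within 1.5 times the value reported. Shares in parentheses are those of all protein-coding genes under the same alternative. Genes with a CLPP-KO peak and none in WT were 8 of 21 at an area of at least 1000 (16.9%), 1 of 14 in lists of equal size by area (8.39%) or by summit p (8.28%) and 3 of 12 on chromosomes 1 to 19 (15.1%). Those with a WT + 2HG peak and none in WT were 7 of 21 at that area (13.5%), 1 of 14 in lists of equal size by summit p (7.13%) and 1 of 12 on chromosomes 1 to 19 (11.7%). Genes with a WT peak and none in WT + 2HG were 0 of 30 at a summit p of at most 1e-05 (0.325%), 0 of 26 at that area (0.364%) and 3 of 32 with one gene per peak (3.34%). Those with a WT peak and none in CLPP-KO were 1 of 33 in lists of equal size by summit p (3.84%) and 1 of 32 with one gene per peak (2.81%). Genes 10 points higher in CLPP-KO were 11 of 33 in equal-sized lists by area (18.5%), 11 of 32 by summit p (18.7%) and 10 of 32 among peaks found in all lists (16.4%).

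Genes 10 points lower in WT + 2HG were 2 of 30 at the stricter p (10.2%) and 2 of 26 at the stricter area (10.5%). They were 4 of 32 in lists of equal size by area (20.1%) or summit p (20.0%) and among shared peaks (24.0%), 5 by the percentile of summit p (17.8%), 3 by that of width (13.6%) and 3 after removing the median of all genes (15.6%). Those lower in CLPP-KO were 2 of 30 at the stricter p (8.24%), 2 of 33 by width (11.4%) or after removing the median (15.1%), 4 of 33 by equal size by area (21.7%) or by the percentile of summit p (14.1%), 4 of 32 among shared peaks (25.0%) and 3 of 32 by equal size by summit p (21.4%). Wider genes were 4 of 26 in CLPP-KO at the stricter area (12.5%) and 4 of 32 in WT + 2HG after removing the median (9.38%). Divided promoters were 2 of 26 in WT (10.3%) and 2 of 33 in WT + 2HG (10.8%) at the stricter area, and 2 of 33 in WT + 2HG at the stricter p (12.3%). In WT + 2HG they were 2 of 34 by equal size by area (12.4%) and 2 of 33 by summit p (12.2%). With one gene per peak they were 2 of 32 (12.1%), 1 of 32 (11.4%) and 1 of 35 (12.1%) in WT, WT + 2HG and CLPP-KO.

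Over all carrier genes, differences of any size changed sign in 84 of 1007 recomputed percentile differences. The other windows, start rules and summit rule leave the lists as they are, so values there could hardly change, and 0 signs did. With equal size by area, signs changed for 6 of 32 genes in WT + 2HG and 9 of 33 in CLPP-KO. By the percentile of width they changed for 9 of 32 and 10 of 33. Values lost because a peak dropped out are in neither this total nor the next. Among the differences and width ratios past 10 points or 1.5 times in the lists as deposited, 9 of 744 changed direction. This total includes the settings that leave the lists as they are, where a change could hardly occur. Slc25a12 in CLPP-KO was −0.745 in either equal-sized list, −3.38 by width and −3.08 among shared peaks. Slc25a35 in CLPP-KO was −3.54 by equal size by area, −3.44 by summit p and −2.38 among shared peaks. By width, Slc25a33 in WT + 2HG was −6.95 and Slc25a24 in CLPP-KO 2.85. Equal-sized and stricter lists hold fewer peaks by construction, and for the other changes the cause was not tested. In the RefSeq promoter table, which held 36 of the 47 genes, the median CpG ratios were 0.775, 0.594 and 0.452 for genes in all, some and no lists.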
